A study of Mus musculus with 6 samples.

Results

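Cyclic AMP (cAMP) signaling through protein kinase A (PKA) was described here in 21-day-old mouse testis by 10 genes: the soluble and a membrane adenylyl cyclase (Adcy10 and Adcy3), both PKA catalytic subunit genes (Prkaca and Prkacb), the 4 PKA regulatory subunit genes (Prkar1a, Prkar1b, Prkar2a and Prkar2b) and a pair of PDE4 phosphodiesterase genes (Pde4d and Pde4a). They were chosen by gene name for their place upstream of the transcription factor CREM and of sperm motility. The rule used no measured values, but earlier results of these data were known when the genes were chosen. They occupy 11 of the 26743 rows of the count table, because 2 Ensembl genes carry the name Pde4d. All 11 rows passed the filter on low counts, which kept 16924 genes.

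RNA-seq was carried out on testis RNA from 3 WT and 3 Trf2-/- males, a comparison that asks which testis genes depend on Trf2 (gene symbol Tbpl1), a TBP-related factor whose loss leaves males sterile. The inactivation is present in every cell of the mutant, so germ cells and somatic cells both lack Trf2. At this age the first round spermatids of the first wave of spermatogenesis are appearing. The RNA came from whole testis, in which spermatogonia, spermatocytes, the first spermatids and somatic cells are mixed.

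cAMP is made from ATP by adenylyl cyclases and broken down by phosphodiesterases. It activates PKA by binding the regulatory subunits, which releases the catalytic subunits to phosphorylate their targets, among them CREB-family transcription factors. In the testis, membrane cyclases act downstream of hormone receptors such as the FSH receptor of Sertoli cells and the LH receptor of Leydig cells. Germ cells also express the soluble cyclase encoded by Adcy10, which responds to bicarbonate and calcium and is required for sperm motility.

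The depth was 21582123 to 29859347 counts on genes in WT and 15187062 to 24530489 in Trf2-/- mice. Values below are CPM, the counts scaled to a common library size with TMM factors. A count of 0 allows up to 3 counts, or 0.105 to 0.144 CPM in WT and 0.119 to 0.19 CPM in Trf2-/- mice (counting error only). Tbpl1 itself was counted 8840, 7391 and 6119 times in WT and 1586, 1500 and 882 times in Trf2-/- mice, a log2 fold change of -2.27 (SE 0.06, edgeR adjusted p = 1.18e-06). A residual Tbpl1 signal of 61.0 ± 4.60 CPM (SD, n = 3) therefore remained in Trf2-/- testis. A gene was called when edgeR's quasi-likelihood test gave it a Benjamini-Hochberg adjusted p below 0.05, adjusted over all genes tested. By this rule 20.2% of tested genes were called lower and 11.2% higher in Trf2-/- testis, and 4.3% were called lower and 0.609% higher by at least 2-fold. For 49.2% of tested genes the WT and Trf2-/- values had no overlap. Of the called genes, 64.4% were lower, a share that became 38.7% when libraries were scaled by size alone, and the all-gene median of the log2 fold changes then moved from 0.04 to 0.13.

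Of the 11 rows, Adcy10 and Prkaca were called lower, against 20.2% of all tested genes, and Prkacb was called higher, against 11.2%. Adcy10 was 3.09-fold lower, whereas the point estimates were -15.6% for Prkaca and 13.7% for Prkacb. The 8 other rows did not pass the test. The median log2 fold change of the 11 rows was 0.09, beside 0.04 for all tested genes. In counts and median the 11 rows lay near the background, and Adcy10 had the largest change among them.

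**Figure D1:**
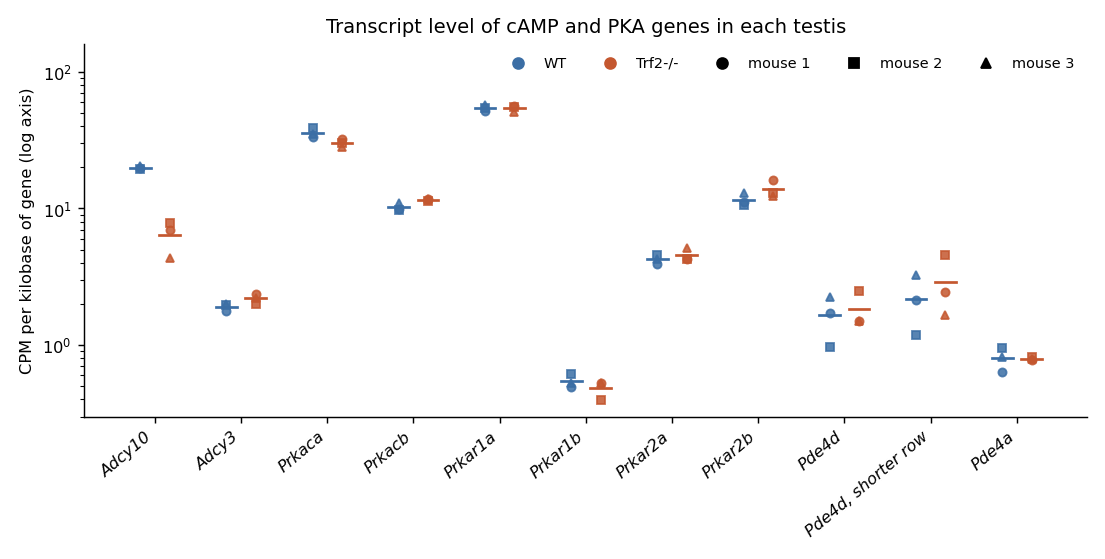
Level of the 11 rows in each testis, in CPM per kilobase of gene on a log axis, with WT in blue, Trf2-/- in red, a symbol for each mouse and lines at the group means. Adcy10 shows the widest gap, with WT mice between 19.5 and 20.4 and Trf2-/- mice between 4.32 and 7.87 CPM per kb.

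Adcy10 (ENSMUSG00000026567, chr1:167415314-167506905, plus strand, build NCBIM37/mm9) encodes the soluble adenylyl cyclase. Its levels were 121, 119 and 124 CPM in WT mice and 42.5, 47.9 and 26.3 CPM in Trf2-/- mice. The WT mice lay close together, every Trf2-/- mouse was lower than every WT mouse, and Trf2-/- mouse 3 was the lowest. The mean went from 121 ± 2.93 to 38.9 ± 11.2 CPM (SD, n = 3 each), a log2 fold change of -1.63 (SE 0.17, 95% interval -2.01 to -1.24, edgeR adjusted p = 0.000461). It ranked 195 by p among the 16924 tested genes, and its decrease exceeded 2-fold, as in 4.3% of tested genes. Without Trf2-/- mouse 3 the log2 fold change was -1.42 (adjusted p = 2.81e-06). In whole-testis RNA, fewer cells of a type and less RNA per cell cannot be told apart.

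Markers of late germ cells were lower in the same mice. Over all tested genes, 20.2% were called lower and 11.2% higher. Of 7 pachytene spermatocyte markers, 6 were called lower, and their summed level was 5573 to 6006 CPM in WT and 3784 to 4635 CPM in Trf2-/- mice. Log2 fold changes of the 7 ran from -1.63 (Ccna1, the germ cell cyclin A1) to -0.09 (Hist1h1t, not called), with a median of -0.70. Pgk2, a germ cell glycolytic kinase, was at -1.37, Piwil1 at -0.25 and Hspa2 at -0.17. Of 5 tested round spermatid markers, 4 were called lower, with a median log2 fold change of -1.89. The sum over the 6 listed ran from 11.1 to 12.5 CPM in WT and from 5.44 to 7.68 CPM in Trf2-/- mice. Spaca1 (-0.22, not called) made up most of this sum, at means of 7.13 CPM in WT and 6.09 CPM in Trf2-/- mice. The 4 called were rarer, from Izumo1 at -1.57 to Acrv1, at least 6.81-fold lower against the highest per-mouse floor. Trf2-/- mouse 3, with the lowest Adcy10, also had the lowest sums for both lists. Elongating spermatid markers summed to 4.84 to 6.01 CPM in WT and 0.833 to 1.33 CPM in Trf2-/- mice, with all 3 tested members lower. The protamine gene Prm2 was at 0, 1 and 1 counts in WT and 0 in each Trf2-/- mouse, and Smcp was also at 0 in all 3 Trf2-/- mice. Early spermatocyte markers summed to 1126 to 1145 CPM in WT and 1298 to 1394 CPM in Trf2-/- mice, with 2 of 5 called higher. The part of these cell types in the Adcy10 decrease was not tested.

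The 100 bases upstream of the single RefSeq start of Adcy10 are shown because it is the gene with the largest change. They lie at chr1:165485083-165485182 on the plus strand of GRCm38.p6, a later build than that of the counts, and are 55% G or C.
Adcy10 upstream: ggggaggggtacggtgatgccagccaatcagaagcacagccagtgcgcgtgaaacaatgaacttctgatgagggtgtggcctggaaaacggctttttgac
These letters, and the whole 250 bases before the start, hold no TGACGTCA (the full cAMP response element), no TGACG (the shorter element, which is contained in the full one) and no TATAAA on either strand. Over all 32851 RefSeq promoter windows of this length, 1.55% hold the full element, 17.8% the shorter one and 12.4% TATAAA.

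Adcy3, a membrane cyclase that responds to G proteins, was at 9.58, 10.5 and 10.7 CPM in WT and 12.8, 10.6 and 11.9 CPM in Trf2-/- mice. The genotypes overlapped, and the log2 fold change of 0.20 (SE 0.11, 95% interval -0.04 to 0.44) did not pass the edgeR test (adjusted p = 0.177). Adcy3 (chr12:4133103-4213525) shares 1380 exon bases with Cenpo on the opposite strand, a gene at 57.4 CPM in WT that was called lower, and their reads on those bases cannot be told apart if the counting ignored strand. Per kilobase of transcript, Adcy10 was counted 10.4 times as often as Adcy3 in WT and 2.82 times as often in Trf2-/- testis. This log2 ratio did not overlap between genotypes (3.38 ± 0.0816 and 1.497 ± 0.518, SD, n = 3), but 3 mice against 3 cannot give a p under 0.1, and the exact two-sided permutation test gave p = 0.1 (adjusted p = 0.25 over 5 ratios).

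The catalytic subunits moved in opposite directions. Prkaca (chr8:86496877-86520344) encodes the widely expressed C-alpha subunit and, from an alternative first exon, the sperm form. It was at 77.7, 89.6 and 81.6 CPM in WT and 74.7, 69.7 and 65.4 CPM in Trf2-/- mice. The groups did not overlap, although WT mouse 1 and Trf2-/- mouse 1 were close. The log2 fold change was -0.24 (SE 0.07, 95% interval -0.40 to -0.08, edgeR adjusted p = 0.0286), a decrease with a 95% interval of -24.4% to -5.69%. The call was kept in 7 of 12 alternatives and lost without WT mouse 2 (adjusted p = 0.114), WT mouse 3 (0.0626), Trf2-/- mouse 2 (0.0717) or Trf2-/- mouse 3 (0.0599), and with scaling by library size alone, where the log2 fold change was -0.15 (0.117). The counts are per gene, so the C-alpha forms were not separated.

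Prkacb (chr3:146392543-146475924, minus strand), the C-beta gene, was at 51.9, 51.0 and 57.3 CPM in WT and 61.7, 58.9 and 61.4 CPM in Trf2-/- mice. The groups did not overlap, with WT mouse 3 just below the lowest Trf2-/- mouse. The log2 fold change was 0.18 (SE 0.06, 95% interval 0.05 to 0.32, edgeR adjusted p = 0.0467). This call is fragile: it was kept in 3 of 12 alternatives, and leaving out any mouse other than WT mouse 3 ended it, with adjusted p from 0.0563 to 0.171.

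The change in balance between the catalytic genes was read from counts per kilobase. Prkaca made up 77.2, 79.8 and 76.2% of catalytic transcripts in WT and 73.2, 72.7 and 70.6% in Trf2-/- mice, with no overlap. Its share went from 77.7 ± 1.87 to 72.2 ± 1.38% (SD, n = 3), a difference of -5.57 percentage points. As a log2 ratio, Prkaca over Prkacb was 1.81 ± 0.158 in WT and 1.38 ± 0.0981 in Trf2-/- testis (exact permutation p = 0.1, the smallest possible, adjusted p = 0.25).

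**Figure D2:**
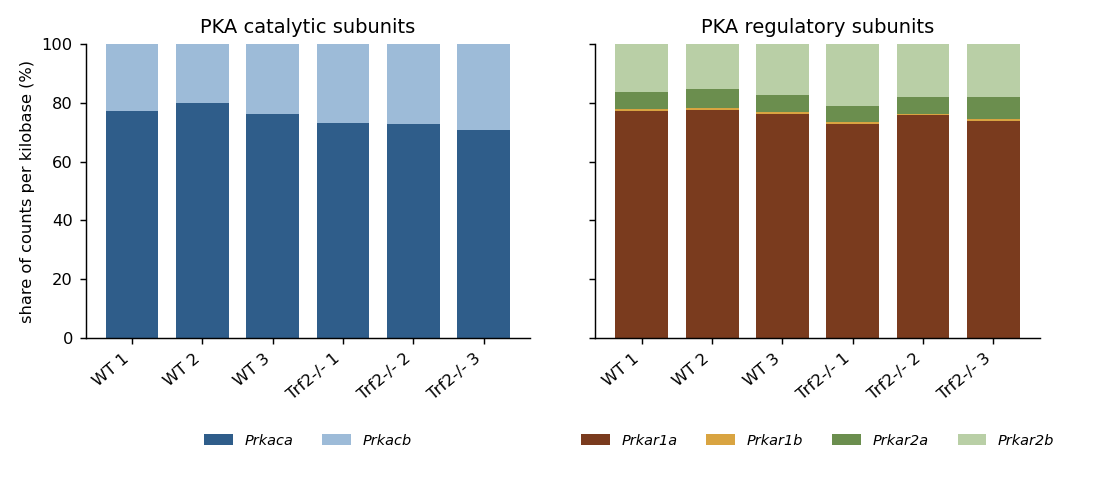
Share of each gene, in percent of counts per kilobase, among the PKA catalytic and the PKA regulatory transcripts of each of the 6 mice. Prkaca was 76.2 to 79.8% of catalytic transcripts in WT and 70.6 to 73.2% in Trf2-/- mice.

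The regulatory subunits did not pass the test. Prkar1a (chr11:109510719-109530970), the type I-alpha subunit that is required in most cells to hold PKA inactive, was at 239, 251 and 263 CPM in WT and 259, 254 and 234 CPM in Trf2-/- mice. The genotypes overlapped, with Trf2-/- mouse 3 the lowest and WT mouse 3 the highest of the 6 mice. Its log2 fold change of -0.01 (SE 0.06, 95% interval -0.14 to 0.12, edgeR adjusted p = 0.901) turned to 0.08 when libraries were scaled by size alone. Prkar1b (chr5:139493260-139625955, minus strand), the type I-beta subunit best known from brain, had 42 to 61 counts in WT and 32 to 51 in Trf2-/- mice. Its log2 fold change was -0.17 (95% interval -0.62 to 0.28, adjusted p = 0.530), and it shares 341 exon bases with Gm15672 on the same strand.

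Type II subunits tether PKA to A-kinase anchoring proteins. Prkar2a (chr9:108594474-108651843), the type II-alpha subunit of the sperm tail, was at 16.3, 19.2 and 17.9 CPM in WT and 17.8, 17.9 and 21.6 CPM in Trf2-/- mice, with overlap and a log2 fold change of 0.09 (95% interval -0.14 to 0.33, edgeR adjusted p = 0.507). Prkar2b (chr12:32643341-32746161, minus strand) was at 40.4, 39.0 and 47.3 CPM in WT and 59.2, 47.8 and 45.3 CPM in Trf2-/- mice. Trf2-/- mouse 1 was the highest and Trf2-/- mouse 3 lay within the WT range. Its log2 fold change of 0.27 (95% interval 0.02 to 0.52, adjusted p = 0.0920) was not called, but passed in 3 of 12 alternatives: with library size alone (0.37, adjusted p = 0.0247), with no filter beyond 1 count (0.28, adjusted p = 0.0430) and without Trf2-/- mouse 3 (0.35, adjusted p = 0.0300).

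Summed per kilobase, the 4 regulatory genes reached 71.0 ± 3.76 CPM per kb in WT and 73.1 ± 4.19 in Trf2-/- testis, and the catalytic genes 46.1 ± 2.48 and 41.8 ± 2.06 (SD, n = 3). Regulatory over catalytic transcripts were 1.55, 1.45 and 1.62 in WT and 1.76, 1.76 and 1.72 in Trf2-/- mice. These ratios did not overlap, a description of transcripts and not of protein. Prkar1a was 77.0 ± 0.601% of regulatory transcripts in WT and 74.1 ± 1.44% in Trf2-/- testis, and Prkar2b was 16.3 ± 1.07% and 18.9 ± 1.73%.

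Short windows of the promoters of Prkar1a and of both catalytic genes are shown for the cAMP response element, the sequence that CREB and CREM recognise. The Prkar1a window holds the full element, whereas the Prkaca and Prkacb windows hold only the shorter one. Capitals mark the full TGACGTCA or, on the opposite strand, the shorter TGACG. They are at chr11:109650889-109650918 (plus strand), chr8:83972846-83972875 (plus) and chr3:146813031-146813060 (minus) of GRCm38.p6, from RefSeq.
Prkar1a: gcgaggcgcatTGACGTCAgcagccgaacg
Prkaca: gtctgcaactcgCGTCActcatccaggagc
Prkacb: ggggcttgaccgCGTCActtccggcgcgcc
The matches begin 49, 120 and 102 bases before the annotated start. All 10 genes were matched, with 26 promoter windows. The full element was found in 1 of the 26, and the shorter one in 7 of the 26, from 5 genes (Prkaca, Prkacb, Prkar1a, Prkar1b and Pde4a), beside the 1.55% and 17.8% of all promoters. Of the 7, 3 are windows of Prkar1a, and 2 of these overlap and share a match. By gene, 1 of 10 held the full element and 5 of 10 the shorter one, beside 2.9% and 28.5% of the 11156 tested genes with a RefSeq promoter. A gene was counted when any of its windows held the element. These 10 genes have 26 windows, more per gene than the 32851 windows of all 27025 genes. The shares by gene were not adjusted for this. TATAAA was found in 1 of the 26, of Prkacb.

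PDE4 phosphodiesterases break down cAMP and are themselves regulated by PKA. The main Pde4d row (ENSMUSG00000021699, chr13:109240142-110743669) was at 18.9, 10.7 and 24.9 CPM in WT and 16.4, 27.4 and 16.6 CPM in Trf2-/- mice. The spread within each genotype exceeded the difference between them, with a log2 fold change of 0.16 (SE 0.29, 95% interval -0.50 to 0.83, edgeR adjusted p = 0.701). The second Pde4d row (ENSMUSG00000074661, chr13:110744317-110746171), which lies just downstream, was at 3.97, 2.18 and 6.05 CPM in WT and 4.56, 8.49 and 3.10 CPM in Trf2-/- mice. WT mouse 2 was the lowest WT mouse and Trf2-/- mouse 2 the highest mutant in both rows, and the second row's log2 fold change of 0.45 (95% interval -0.48 to 1.37, adjusted p = 0.430) was not called. Pde4a (chr9:20970158-21017692) was at 3.52, 5.29 and 4.56 CPM in WT and 4.36, 4.55 and 4.42 CPM in Trf2-/- mice, a log2 fold change of 0.00 (95% interval -0.38 to 0.38, adjusted p = 0.998).

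**Figure D3:**
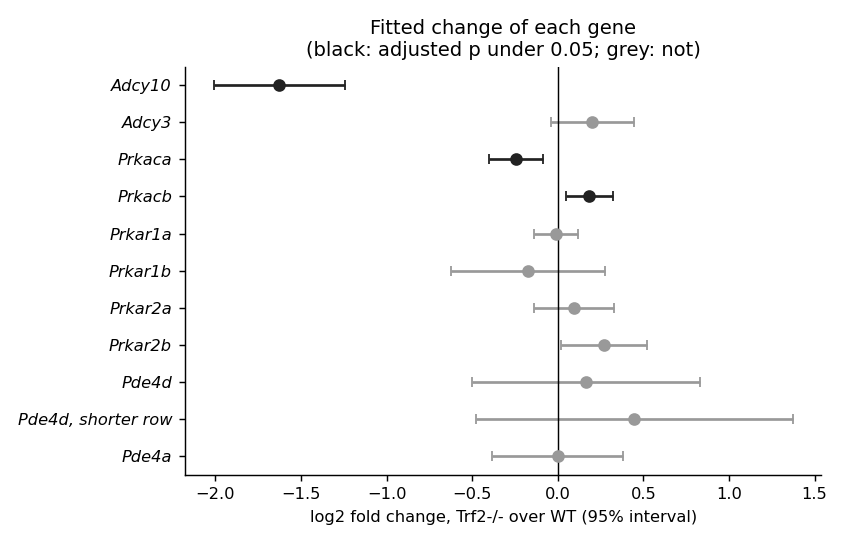
Fitted log2 fold change of each row, Trf2-/- over WT, with its 95% interval. Adcy10 lies at -1.63, far from the other rows, which lie between -0.24 and 0.45.

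The order of levels was compared per kilobase of transcript. In WT it began with Prkar1a (54.6 ± 2.58 CPM per kb), Prkaca (35.8 ± 2.61) and Adcy10 (19.9 ± 0.482), followed by Prkar2b (11.6 ± 1.22) and Prkacb (10.2 ± 0.658), whose ranges overlapped. Prkar2a (4.25 ± 0.341) came next, and the 2 Pde4d rows and Adcy3, from 1.65 to 2.19, could not be ordered beyond their spread. Pde4a (0.799) and Prkar1b (0.545) were lowest. In Trf2-/- testis Adcy10 moved from the third to the fifth place, at 6.39 ± 1.85 CPM per kb, where its range overlapped that of Prkar2a (4.56 ± 0.520).

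Around these genes, 85 others of the pathway were examined in 10 lists by role. Of the 79 tested, 24 (30.4%) were called lower, beside 20.2% of all tested genes, and 11 (13.9%) higher, beside 11.2%. By at least 2-fold, 8 were lower and 1 higher, beside 4.3% and 0.609%. The median log2 fold change of the 79 was 0.08. The lists were set with earlier results of these data known, and some hold genes chosen for roles in sperm. These shares are a description and not a test.

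**Figure D4:**
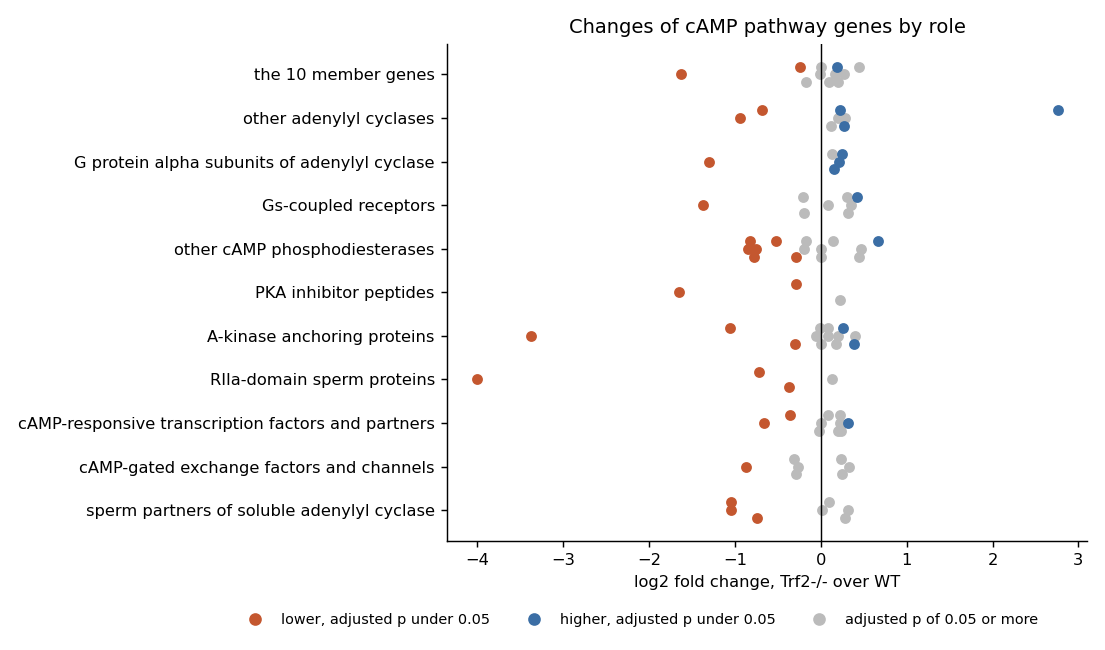
Log2 fold change, Trf2-/- over WT, of each tested gene of the cAMP pathway by role, with red for genes called lower, blue for genes called higher and grey for the rest. The decreases past -1 lie among G protein subunits, receptors, PKA inhibitors, anchoring proteins, RIIa-domain proteins, partners of the soluble cyclase, and Adcy10, and the only increase past 1 is Adcy8, at 2.77.

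Of 7 tested sperm partners of the soluble cyclase (bicarbonate and anion transporters, proton exchangers and a carbonic anhydrase), 3 were called lower and none higher. That is 42.9% and 0%, beside 20.2% and 11.2% of all tested genes. Slc26a8, a sperm anion transporter, went from 145 ± 7.86 to 69.8 ± 12.5 CPM (SD, n = 3), a log2 fold change of -1.05 (SE 0.11, edgeR adjusted p = 0.000499). Slc9a10, the sperm sodium/proton exchanger with a cyclic nucleotide binding domain, went from 185 ± 6.55 to 88.8 ± 19.5 CPM (-1.05, SE 0.13, adjusted p = 0.000826). Nhedc1, a related exchanger, was at -0.74. The list's median was 0.02, as Slc4a7, a bicarbonate cotransporter, was at 0.02 and Car4, a carbonic anhydrase, at 0.28, neither called. The pachytene and spermatid marker sums given above were also lower in Trf2-/- mice. Their part in these decreases, and in those of the lists that follow, was not tested.

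Of 13 tested A-kinase anchoring proteins, which hold PKA at the flagellum and at other sites in the cell, 3 were called lower and 2 higher. That is 23.1% and 15.4%, near the 20.2% and 11.2% of all tested genes, and the median log2 fold change was 0.09. Akap4, the main fibrous sheath anchor, had 64, 66 and 33 counts in WT and 6, 7 and 0 in Trf2-/- mice (log2 fold change -3.38, SE 0.47, edgeR adjusted p = 0.00113). Its partner Akap3 went from 13.0 ± 1.25 to 6.15 ± 1.27 CPM (-1.06, adjusted p = 0.00127). Akap14, known from the flagellum, was too rare to be tested, at 7, 7 and 2 counts in WT and 0, 1 and 0 in Trf2-/- mice. Akap12, a scaffold of the plasma membrane, was lower at -0.30. Akap1, the mitochondrial anchor, was higher at 0.39 (adjusted p = 0.00602), as was Akap13 at 0.26 (adjusted p = 0.00659). Of 4 sperm proteins with a RIIa-like docking domain, 3 (75%) were lower, beside 20.2% of all tested genes. Ropn1 (ropporin) had 22, 35 and 24 counts in WT and 1, 3 and 0 in Trf2-/- mice, at least 5.73-fold lower against the highest per-mouse floor (adjusted p = 0.0012). Spa17 was lower at -0.37 (adjusted p = 0.00197) and Ropn1l at -0.72, while Cabyr was at 0.13 (adjusted p = 0.590).

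Of the 3 genes for PKA inhibitor peptides, which bind free catalytic subunits, 2 (66.7%) were lower, beside 20.2% of all tested genes. Pkig went from 83.3 ± 1.97 to 68.3 ± 5.05 CPM (log2 fold change -0.28, edgeR adjusted p = 0.00861). Pkib was rare, with 25, 22 and 13 counts in WT and 8, 5 and 3 in Trf2-/- mice (-1.65, SE 0.33, adjusted p = 0.00621). Pkia was at 0.22 and was not called (adjusted p = 0.326).

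Among 14 other cAMP phosphodiesterases, 6 were called lower and 1 higher, with a median log2 fold change of -0.18. That is 42.9% and 7.14%, beside 20.2% and 11.2% of all tested genes. Pde8a, a cAMP-specific enzyme, went from 292 ± 2.38 to 202 ± 20.3 CPM (SD, n = 3), a log2 fold change of -0.53 (SE 0.07, edgeR adjusted p = 0.000927). Pde1c, which calcium and calmodulin activate, went from 213 ± 6.77 to 126 ± 19.9 CPM (-0.75, SE 0.10, adjusted p = 0.000988). Of the other PDE4 genes, Pde4b was at 25.6 ± 0.328 CPM in WT and 25.6 ± 1.496 CPM in Trf2-/- testis, with a log2 fold change of -0.0026 (adjusted p = 0.981). The increase of the rarer Pde4c (1.79 CPM in WT, 0.67, adjusted p = 0.0483) was kept in 5 of 12 alternatives and lost without any one mouse other than Trf2-/- mouse 1 (adjusted p from 0.0949 to 0.135).

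Of 8 other adenylyl cyclases, 3 (37.5%) were higher and 2 (25%) lower, beside 11.2% and 20.2% of all tested genes. Adcy7 was higher at a log2 fold change of 0.27 (edgeR adjusted p = 0.0129, but 0.0579 without WT mouse 1) and Adcy9 at 0.22 (adjusted p = 0.0184, but 0.0844 without WT mouse 2 and 0.0529 without WT mouse 3). Adcy8 had 1, 2 and 4 counts in WT and 17, 17 and 9 in Trf2-/- mice, close to the limit of detection in WT (log2 fold change 2.77, adjusted p = 0.00293). Adcy1 (-0.69, adjusted p = 0.00566) and Adcy2 (-0.94, adjusted p = 0.0049) were lower. Of 5 G protein alpha subunits, 3 (60%) were higher and 1 (20%) lower, beside 11.2% and 20.2% of all tested genes. Gnas, which encodes the stimulatory subunit, was at 0.22 (adjusted p = 0.0128, but 0.0667 without WT mouse 2). The inhibitory Gnai1 was at 0.24 (adjusted p = 0.0458), with overlap between the genotypes, and its call was lost without WT mouse 2 or 3 or Trf2-/- mouse 1 or 3 (adjusted p from 0.0596 to 0.149). Gnai2, also inhibitory, was at 0.15 (adjusted p = 0.0297), a call kept in 5 of 12 alternatives and lost without any one WT mouse or Trf2-/- mouse 1 (adjusted p from 0.0561 to 0.119). Gnal, the olfactory stimulatory subunit, was lower at -1.30 (adjusted p = 0.00305). Mean sums of somatic markers in WT and Trf2-/- testis were 1395 and 1619 CPM for Sertoli cells and 31.2 and 39.3 CPM for endothelial cells, without overlap between the genotypes. Macrophage markers had means of 172 and 258 CPM but overlapped, at 162 to 187 CPM in WT and 186 to 366 CPM in Trf2-/- mice. Sums for Leydig cells (174 to 351 and 176 to 317 CPM) and peritubular cells (289 to 371 and 363 to 417 CPM) overlapped too. Early spermatocyte markers were higher too, with mean sums of 1137 CPM in WT and 1359 CPM in Trf2-/- testis, without overlap. The part of somatic cells or of early spermatocytes in these increases was not tested.

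Of 8 Gs-coupled receptors, 1 (12.5%) was higher and 1 (12.5%) lower, beside 11.2% and 20.2% of all tested genes. Fshr, the FSH receptor of Sertoli cells, went from 8.92 ± 1.10 to 11.9 ± 0.868 CPM (log2 fold change 0.42, SE 0.12, edgeR adjusted p = 0.0259), a call kept in 7 of 12 alternatives and lost without WT mouse 1 or 2 or Trf2-/- mouse 1 or 2 (adjusted p from 0.0525 to 0.097). Sertoli cell markers summed to 1345 to 1457 CPM in WT and 1548 to 1734 CPM in Trf2-/- mice, with 2 of 5 called higher, and their part in the Fshr increase was not tested. Lhcgr, the LH receptor of Leydig cells, was at 0.32 and was not called (adjusted p = 0.189). Adrb1, the beta-1 adrenergic receptor, was lower at -1.37 (adjusted p = 0.00399).

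At the transcription end of the pathway, 2 of 10 genes (20%) were lower and 1 (10%) higher, near the 20.2% and 11.2% of all tested genes. Crem, the cAMP-responsive activator of spermatid genes, was lower in every Trf2-/- mouse than in every WT mouse, from 120 ± 1.46 to 93.0 ± 10.97 CPM (log2 fold change -0.36, SE 0.08, edgeR adjusted p = 0.00837). Its decrease was called in all 12 alternatives. The counts do not separate its activator and repressor isoforms. Kif17, a kinesin that carries the CREM coactivator out of the nucleus, was lower at -0.66 (adjusted p = 0.0226), a call kept in 7 of 12 alternatives and lost without any one mouse other than Trf2-/- mouse 3 (adjusted p from 0.0548 to 0.0848). Crtc1, a CREB coactivator, was higher at 0.32 (adjusted p = 0.0154), a call kept in 10 of 12 alternatives and lost without WT mouse 2 (0.0676) or WT mouse 3 (0.0512).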

How the data were processed

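Testis total RNA of 3 WT and 3 Trf2-/- mice was depleted of ribosomal RNA and sequenced as single-end reads with a strand-specific kit. The submitters' processing notes name CASAVA 1.8.2, TopHat2 2.0.10, Bowtie2 2.1.0, HTSeq 0.5.4p3 and DESeq2 1.0.19 with build mm9. The authors deposited raw read counts per gene. The annotation release and the strand setting of the counting are not given in the sources used here. The table's 12 further per-mouse columns were not used here.

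Counts were tested with edgeR 4.0.16 (R 4.3.3): filterByExpr, TMM factors, glmQLFit, glmQLFTest and Benjamini-Hochberg adjustment over 16924 genes holding 99.9% of reads. DESeq2 1.42.0 served as an alternative. Levels between genes used the lengths in the deposited table. Log2 ratios of counts per kilobase (0.5 added to each count) were compared by exact permutation tests (scipy 1.17.1). Fold changes against a genotype with at most 3 counts in every mouse were given as bounds. Both tools were tested on simulated data. In each pair of mice of 1 genotype the counts differed by more than sampling noise. Chi-square over degrees of freedom was 3.32 to 5.57 in WT pairs and 6.25 between Trf2-/- mice 1 and 2. It was highest, at 10.34 and 9.98, in the pairs with Trf2-/- mouse 3. Starts and ends of the 11 rows matched GENCODE vM1. Its exon lengths differed from the deposited lengths for Adcy3 (6246 and 5364 bases), Prkacb, Pde4a and the longer Pde4d row. Shared exon bases were taken from GENCODE vM1, which may not be the annotation that was counted. Promoter sequences came from RefSeq (GRCm38.p6). Protein sequences were not used here.

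Named were the 10 genes, Tbpl1, Crem, Fshr, Lhcgr, listed genes called by at least 2-fold, and up to 2 genes per direction and list with the smallest adjusted p. Named outside this rule, after their values were seen, were markers and further list members, among them Adcy9, Gnai1, Akap12, Ropn1l and Nhedc1, which complete the calls of their lists. The genes and lists were chosen with earlier results of these data known. Markers of spermatogonia and of peritubular, Leydig and endothelial cells and macrophages were also summed.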

Additional observations from a re-analysis of the deposited data

How the results depend on the processing

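The Adcy10 decrease was called in all 12 alternative fits (other scalings, filters, the DESeq2 test, the replicate block and each mouse left out), with log2 fold changes from -1.81 to -1.42 and adjusted p from 1.52e-09 to 0.00416. With library size alone, 4267 of all tested genes were higher, 21 of the pathway lists, and of the 11 rows 1 was lower and 2 higher. No row was higher with the DESeq2 Wald test, with at least 10 counts in every mouse or with the replicate block. At an adjusted p under 0.01, 481 of all tested genes were higher and 3 of the pathway lists, and 1 row was lower and 0 higher. With a 2-fold limit, 727 genes were lower and 103 higher, 8 and 1 of the pathway lists, and 1 and 0 of the 11 rows. Leaving out 1 mouse in turn gave 2626 to 3332 genes lower and 780 to 1903 higher, 22 to 24 and 4 to 11 of the pathway lists, and 1 to 2 and 0 to 1 of the rows. Same-numbered mice did not deviate together (r = -0.0973, -0.0313 and -0.102), so no pairing by number was seen, though 3 mice per genotype cannot exclude one. The block gave 3094 genes lower and 1486 higher, with 2 rows lower and 0 higher.

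Uncalled values near 0 changed sign. Pde4a was at -0.0033 with DESeq2 size factors, -0.0039 with the DESeq2 test and -0.0097 with the stricter filter, and ran from -0.15 to 0.14 with 1 mouse left out, being negative without WT mouse 1 and without Trf2-/- mouse 2 (-0.029). Prkar1a was at 0.084 with library size alone and ran from -0.054 to 0.039 with 1 mouse left out, being positive without WT mouse 3 (0.022) and without Trf2-/- mouse 3. Pde4d ran from -0.14 to 0.45, being negative without WT mouse 2 (-0.11) and without Trf2-/- mouse 2, and its shorter row from -0.055 (without Trf2-/- mouse 2) to 0.82. The log2 ratio difference of Prkar2a to Prkar2b ran from -0.33 to 0.00050 (without Trf2-/- mouse 1), and that of Pde4a to Pde4d from -0.41 to 0.30, being positive without WT mouse 2 and without Trf2-/- mouse 2 (0.057). Shares from raw counts moved Prkaca by -7.29 and Prkacb by 7.29 percentage points. The cause of these shifts was not tested. With 3 mice per genotype, ratio tests cannot pass 0.05, and changes of Prkar1b, Pde4d and Pde4a inside their wide intervals were not detectable at this depth and spread.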

Other observations

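PKA is not the only direct target of cAMP. Of 11 listed exchange factors and cyclic nucleotide-gated or hyperpolarization-activated channels, 7 were tested. Beside 20.2% and 11.2% of all tested genes, 1 (14.3%) was called lower and none higher. This was Cnga4, a channel subunit, at 1.28 ± 0.321 CPM in WT and 0.695 ± 0.142 CPM in Trf2-/- testis (SD, n = 3, log2 fold change -0.87, edgeR adjusted p = 0.0482), a call kept in 4 of 12 alternatives and lost without WT mouse 1 or 3 or Trf2-/- mouse 1 or 3 (adjusted p from 0.0959 to 0.173). The exchange factors Rapgef3 (-0.26, adjusted p = 0.132) and Rapgef4 (-0.29, adjusted p = 0.0939), which activate Rap proteins when they bind cAMP, were not called.

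Other cell markers varied as follows in CPM summed per list, with calls to be read beside 20.2% of all tested genes lower and 11.2% higher. Macrophage markers spanned 162 to 187 in WT and 186 to 366 in Trf2-/- mice, with 4 of 7 higher. Spermatogonial markers spanned 459 to 476 and 332 to 369, with 1 of 8 lower (Dmrtb1, at -1.10) and 1 higher (Kit, at 0.19). Without Dmrtb1 the other 7 summed to 206 to 225 in WT and 212 to 261 in Trf2-/- mice, so the lower sum rests on that gene, and the list's median log2 fold change was 0.06. Peritubular markers spanned 289 to 371 and 363 to 417, with 1 of 5 higher. Endothelial markers spanned 28.02 to 33.4 and 35.4 to 44.2, with 1 of 4 higher. Leydig cell markers spanned 174 to 351 and 176 to 317, with 1 of 5 higher. In the Leydig cell list, Star, which moves cholesterol into mitochondria under LH and cAMP, had 703, 476 and 1920 counts in WT and 1240, 2387 and 322 in Trf2-/- mice, so the mice of 1 genotype differed among themselves more than the genotypes did (log2 fold change 0.39, adjusted p = 0.678).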
